A study of Mus musculus with 2 samples.

Results

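Sterol synthesis is the chain of reactions that turns acetyl-CoA into cholesterol, and the genes described here are 19 of its enzymes together with 9 genes that set the rate of synthesis, move sterol inside the cell or store it. The 28 genes were taken by symbol from a list in pathway order, and 28 of 28 were found among the 17145 rows of the deposited expression table. All of them reached 1 FPKM (fragments per kilobase of transcript, scaled to library size) in the higher library, so none was lost to the minimum used below. By the labels, RNA came from primary mouse hepatic stellate cells, the sinusoidal pericytes of the liver that turn into matrix-producing myofibroblasts in culture. Markers of macrophages and endothelium were abundant in both libraries, so the levels below cannot be assigned to stellate cells alone. Both groups had the genotype Adar1f/f/Cre-ER, meaning floxed alleles of the gene for the RNA-editing enzyme ADAR1 and a recombinase that a tamoxifen metabolite switches on, and both were cultured for 4 days. One group received vehicle and the other 100 nM 4-hydroxytamoxifen (4-OHT), with 1 library per group. The promoter that drives Cre-ER is not given in the sources used here.

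With n = 1 in each group there is no replicate check and no test across replicates, and every difference below is between these libraries. Neither group received 4-OHT without the floxed alleles, so the drug and the recombination that it starts cannot be told apart. Tamoxifen and its metabolites are known to bind sterol-processing enzymes, among them the products of Ebp and Dhcr7. Adar itself was not analysed here, so the labels were not checked against the deleted gene.

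As background, the transcription factor SREBP2, encoded by Srebf2, drives the synthesis genes. When membranes of the endoplasmic reticulum are low in cholesterol, the escort protein SCAP carries SREBP2 to the Golgi, where proteases release its active part. INSIG proteins hold SCAP back when sterols are plentiful, and certain oxysterols strengthen this hold. The nuclear receptors LXR respond to oxysterols and switch on sterol export. In the promoters of synthesis genes, SREBP2 is known to act beside the factor NF-Y, which binds the letters CCAAT.

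To show the sequences in which such sites would lie, the 250 bases before the transcript start are given for 5 members, from RefSeq on GRCm38.p6. Capitals mark matches to the sterol regulatory element core TCACNCCAC or to CCAAT, on either strand. Insig2 was taken by a rule, as the member with the smallest change, and the others were picked after their values were seen. They are Hmgcs1, which held the core of the sterol regulatory element (chr13:119690101-119690350, plus strand), Cyp51, the lowest member in the 4-OHT library relative to vehicle (chr5:4104698-4104947, minus strand), the related genes Insig1 (chr5:28071162-28071411, plus strand) and Insig2 (chr1:121332590-121332839, minus strand, the first of its 3 entries), and Ch25h, the 1 member at least 2-fold higher (chr19:34475149-34475398, minus strand).
Hmgcs1: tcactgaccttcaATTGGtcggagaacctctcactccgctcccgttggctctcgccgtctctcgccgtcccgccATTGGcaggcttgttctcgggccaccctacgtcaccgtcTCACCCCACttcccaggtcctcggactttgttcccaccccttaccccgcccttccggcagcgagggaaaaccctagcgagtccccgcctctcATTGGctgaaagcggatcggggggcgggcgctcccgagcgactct
Cyp51: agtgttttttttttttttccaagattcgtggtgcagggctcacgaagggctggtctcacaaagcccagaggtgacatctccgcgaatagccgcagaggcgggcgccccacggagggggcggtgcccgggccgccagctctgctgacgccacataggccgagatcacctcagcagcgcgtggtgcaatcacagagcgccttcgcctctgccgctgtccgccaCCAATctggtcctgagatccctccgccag
Insig1: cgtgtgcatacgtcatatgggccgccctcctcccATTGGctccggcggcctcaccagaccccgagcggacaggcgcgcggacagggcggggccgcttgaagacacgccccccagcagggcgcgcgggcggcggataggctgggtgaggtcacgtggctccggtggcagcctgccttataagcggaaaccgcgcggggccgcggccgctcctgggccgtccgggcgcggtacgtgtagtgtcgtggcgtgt
Insig2: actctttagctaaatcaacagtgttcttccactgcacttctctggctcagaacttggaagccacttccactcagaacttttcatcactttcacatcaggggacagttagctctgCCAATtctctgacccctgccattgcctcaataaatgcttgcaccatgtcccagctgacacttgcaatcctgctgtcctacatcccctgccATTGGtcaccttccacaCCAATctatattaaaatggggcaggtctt
Ch25h: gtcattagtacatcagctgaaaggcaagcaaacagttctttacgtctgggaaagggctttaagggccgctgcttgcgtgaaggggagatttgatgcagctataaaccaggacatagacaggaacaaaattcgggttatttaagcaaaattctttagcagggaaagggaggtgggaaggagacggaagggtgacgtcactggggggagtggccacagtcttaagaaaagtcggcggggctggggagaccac
Of the 28 members, 24 had at least 1 promoter in the RefSeq table, and Fdps, Fdft1, Sqle and Stard4 had none. CCAAT stood in 20 of these 24 genes (83.3%), against 40.5% of the 9485 genes with a promoter entry and at least 1 FPKM. It was found in 15 of 16 enzymes and in 5 of 8 regulators. TCACNCCAC stood in 1 of the 24 genes, beside 1.23% of the 9485, and the match, in Hmgcs1, began at position −137 from the start. A gene counted as holding a motif when any of its entries did, the 2 motifs do not overlap in these promoters, and a match to letters says nothing about binding. Only these exact letters within 250 bases were searched, so the lack of a match does not show that a site is missing.

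**Figure D1:**
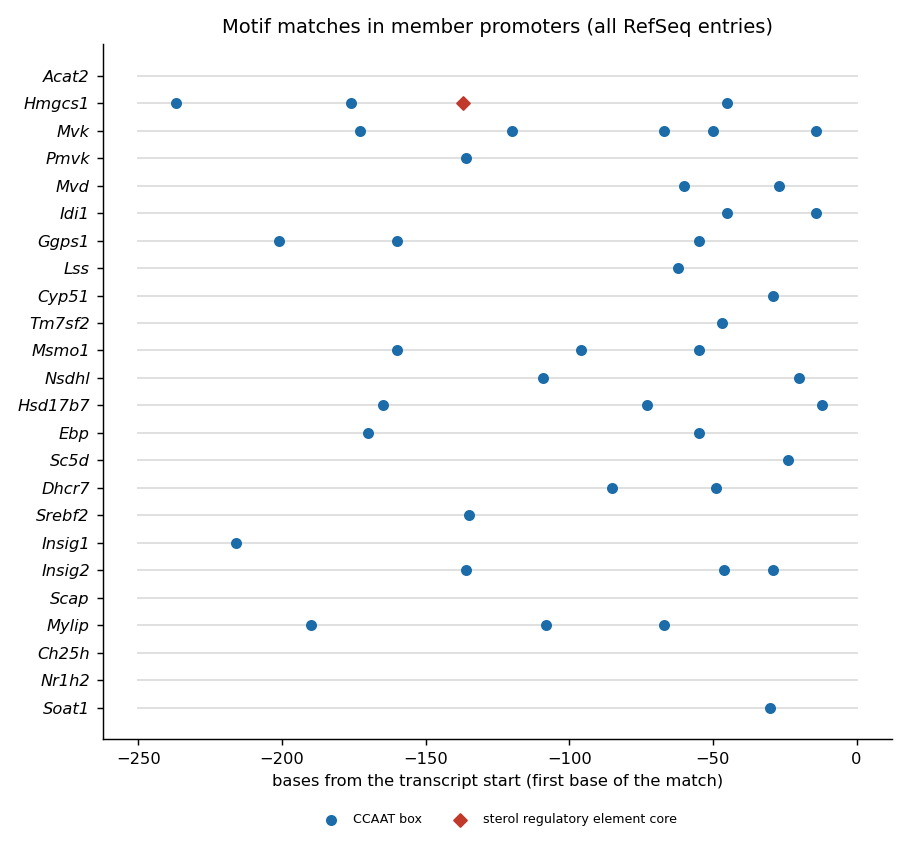
Each line is the 250 bases before the transcript start of a member, with position in bases from the start on the horizontal axis and genes on the vertical axis. Points are first bases of matches on either strand in any RefSeq entry, and CCAAT matches (circles) are present in 20 of the 24 genes, while the sterol regulatory element core (diamond) is present in Hmgcs1.

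Nearly the whole synthesis chain was lower in the 4-OHT library. Of the 19 enzymes, 18 were below their vehicle level and the exception was Ggps1, a branch enzyme that leads away from sterols. Of all 28 members 23 were below vehicle, beside 46.8% of all measured genes. Over the 18, the ratio of 4-OHT to vehicle FPKM ran from 0.226 for Cyp51 to 0.736 for Mvk, with a median of 0.522. Summed over the 19 enzymes, FPKM was 254 with vehicle and 134 with 4-OHT. The 9 regulators showed no common direction, since 5 were below and 4 above the vehicle level, of which Scap turned below it when both libraries were scaled to equal FPKM sums.

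Changes are given as the log2 of FPKM plus 1, 4-OHT over vehicle, which understates the difference of low genes. In every list below, a gene is counted as lower or higher when this change reaches 2-fold, and as within 2-fold otherwise. By this measure 9 of the 28 members were lower, where 3.48% of the 13558 genes that reached 1 FPKM in the higher library were lower. With each library rescaled to the same FPKM sum, 6.29% of all genes were lower and 5.39% higher, and 12 members were lower. The count of 1 higher member, Ch25h, stands beside 5.78% of all genes. The median change was −0.69 over the 28 members and −0.81 over the 19 enzymes, beside 0.03 over all genes. Just past the 2-fold line was Acat2 at −1.12, and just short of it were Fdft1 at −0.96 and Hmgcs1 at −0.89.

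**Figure D2:**
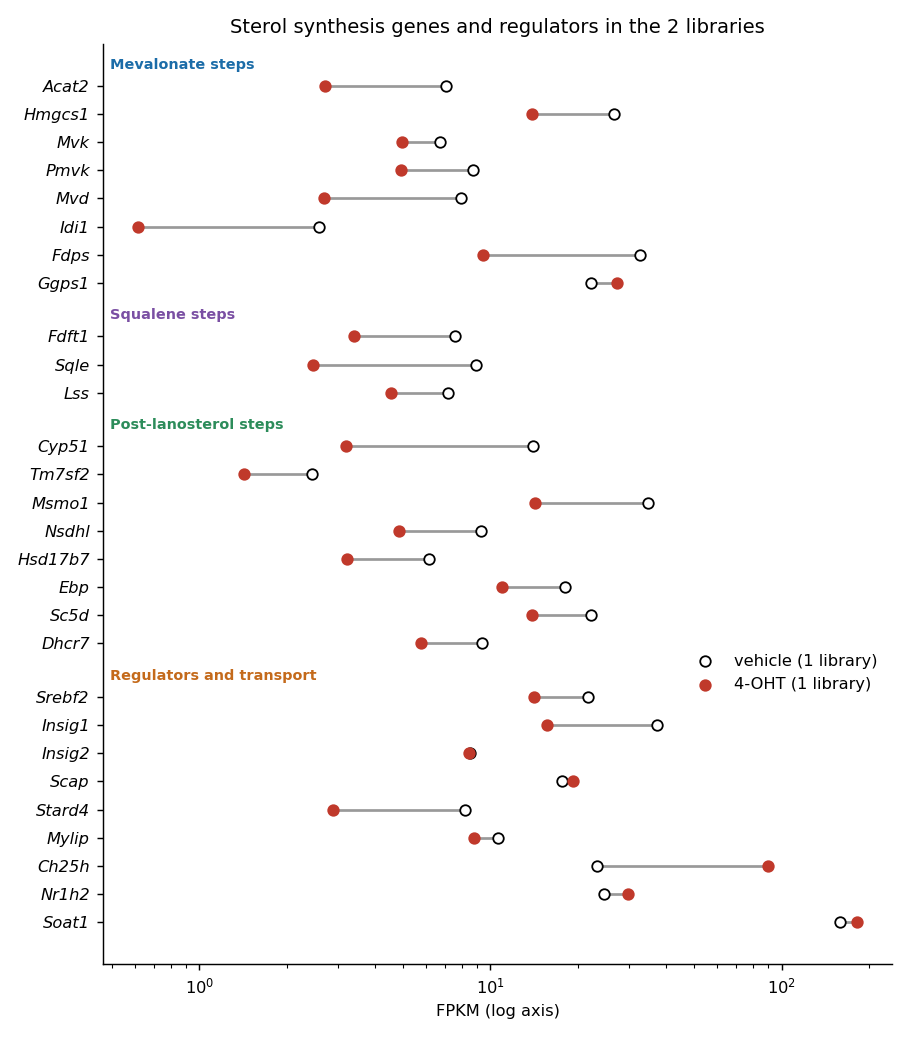
FPKM on a log axis for the 28 members in pathway order, with vehicle as open circles and 4-OHT as filled circles, 1 library each, joined by a line per gene. The filled circle lies left of the open one for every enzyme except Ggps1, and Ch25h shows the widest gap in the other direction, from 23.1 to 89.5 FPKM.

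The mevalonate steps build the isoprenoid units. Of 8 genes, 4 were at least 2-fold lower and 4 within 2-fold, with a median change of −1.01. Acat2, the cytosolic thiolase that joins acetyl-CoA units, was at 7.06 FPKM in the vehicle library and 2.70 FPKM in the 4-OHT library (log2 change −1.12). Hmgcs1, the HMG-CoA synthase, was at 26.6 and 13.9 FPKM. Its level was lower with 4-OHT but stayed within 2-fold. The kinases were the least altered genes of this stretch below the vehicle level: Mvk, which phosphorylates mevalonate, was at 6.73 and 4.96 FPKM (−0.38), and Pmvk, which adds the next phosphate, at 8.73 and 4.95 FPKM (−0.71).

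Mvd, whose product releases isopentenyl diphosphate, was at 7.91 and 2.69 FPKM (log2 change −1.27). Its whole span lies within Gm20388, a gene model on the opposite strand at 11.4 and 8.67 FPKM. Idi1, the isomerase of that unit, was at 2.59 and 0.618 FPKM, and without the added 1 its ratio was 0.239, with a 95% counting interval of 0.176 to 0.322. Idi1 was thus among the furthest members by ratio while its log2 change of −1.15 was damped by its low level. Fdps, which makes farnesyl diphosphate, the last unit shared by sterols and other isoprenoids (chromosome 3, 89093588 to 89101959, minus strand, GRCm38), was at 32.7 and 9.42 FPKM. Its log2 change of −1.69 ranked 122 from the lowest of 13558 genes. It overlaps Gm43738, a gene model on the same strand, over 7512 bases, so the division of fragments between them is uncertain. Ggps1 uses the Fdps product to make geranylgeranyl diphosphate for protein prenylation, and it was at 22.1 and 27.2 FPKM (0.28). Its difference was small and in the other direction from that of Fdps.

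The 3 squalene steps, the first that serve sterols alone, were all below vehicle. Fdft1, the squalene synthase, was at 7.58 and 3.41 FPKM (log2 change −0.96). Its gene shares 774 bases with Ctsb, an abundant gene on the opposite strand at 1889 and 2130 FPKM, and use of strand in counting is not given in the sources used here. Fragments of the 2 genes in that stretch may therefore not be separated. Sqle, the squalene epoxidase and a rate-limiting enzyme (chromosome 15, 59315077 to 59331192, plus strand), had 8.89 and 2.45 FPKM. The log2 change of Sqle was −1.52, and its ratio was 0.276 (counting interval 0.235 to 0.325). Lss, the cyclase that forms lanosterol, was at 7.14 and 4.56 FPKM (−0.55), the smallest difference of the 3.

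All 8 post-lanosterol genes were below vehicle, 2 of them at least 2-fold, with a median change of −0.72. Cyp51 demethylates lanosterol (chromosome 5, 4081145 to 4104746, minus strand). Its level was 14.05 FPKM in the vehicle library and 3.18 FPKM in the 4-OHT library. It was the lowest of the 28 members, at rank 98 from the lowest of 13558 genes, with a log2 change of −1.85 and a ratio of 0.226 (counting interval 0.202 to 0.253). Msmo1, the methyl sterol oxidase and the most abundant enzyme of the 19 with vehicle, was at 34.8 and 14.2 FPKM (−1.24). The other 6 genes of this stretch were within 2-fold.

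Nsdhl and Hsd17b7, which act with Msmo1 to remove methyl groups, were at 9.25 and 4.86 FPKM (log2 change −0.81) and at 6.18 and 3.22 FPKM (−0.76). Ebp, the isomerase, was at 18.1 and 10.9 FPKM (−0.68). Sc5d, the desaturase, was at 22.2 and 13.9 FPKM (−0.64). Dhcr7, a terminal reductase, was at 9.33 and 5.77 FPKM (−0.61). These 5 genes kept close together, with 4-OHT levels between 0.522 and 0.624 of vehicle. Tm7sf2, a sterol reductase, was the least abundant member with vehicle, at 2.44 and 1.42 FPKM, and its counting interval for the ratio was wide, from 0.347 to 0.975. It shares 532 bases with Vps51 on the same strand, at 18.4 and 17.4 FPKM.

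**Figure D3:**
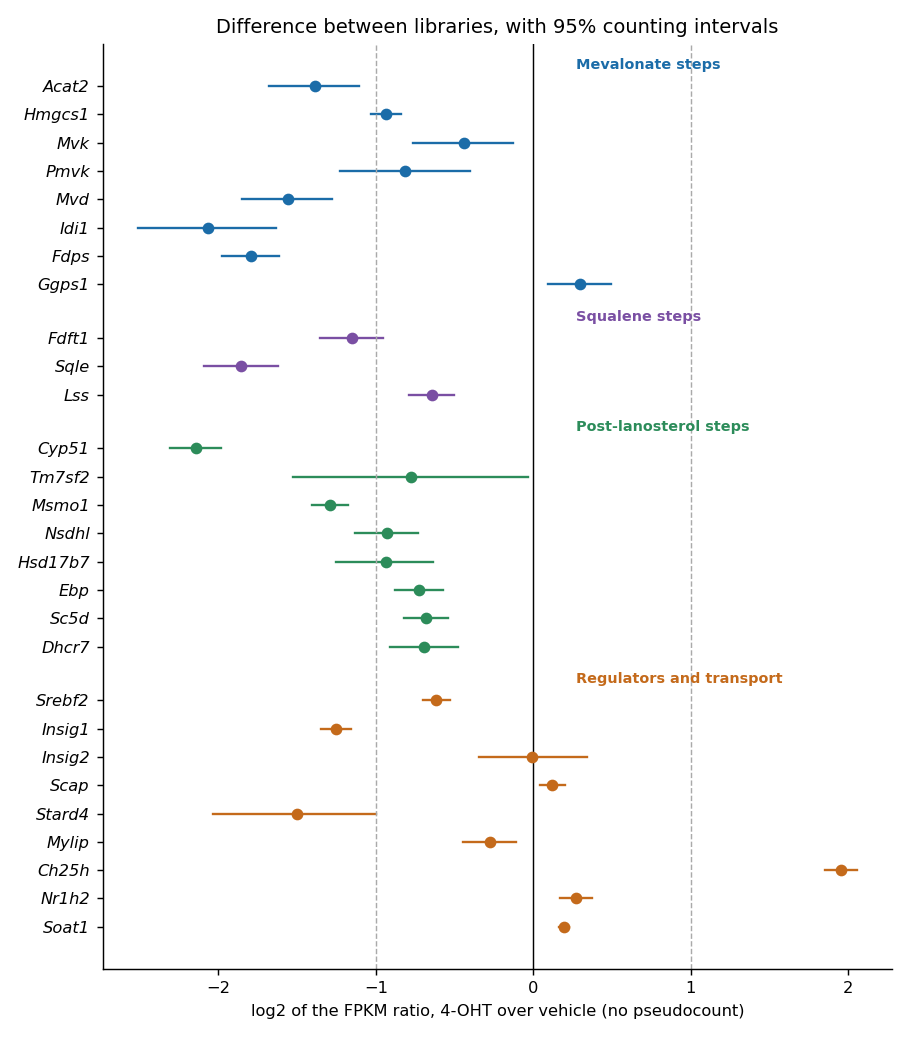
The horizontal axis is the log2 of the 4-OHT over vehicle FPKM ratio with no added value, one point per member, coloured by role, with 95% counting intervals that take all fragments to come from the shortest basic protein-coding transcript; dashed lines mark 2-fold. On the deposited scale, the interval lies wholly below 0 for 22 members and spans 0 for Insig2. It lies wholly above 0 for Ggps1, Scap, Ch25h, Nr1h2 and Soat1. Intervals were not computed on other scales. With equal FPKM sums and 1 added, the log2 change was −0.05 for Scap, 0.03 for Soat1, 0.10 for Nr1h2 and 0.13 for Ggps1.

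Among the regulators, the sensing and transport genes divided. Srebf2, the gene of SREBP2, was at 21.7 and 14.1 FPKM (log2 change −0.58), while Scap was at 17.7 and 19.2 FPKM (0.11). With each library rescaled to the same FPKM sum, Scap was below vehicle, and it was the 1 member whose sign turned under any scaling. Insig1, itself a target of SREBP2 (chromosome 5, 28071363 to 28078662, plus strand), had 37.3 and 15.7 FPKM (−1.20), with a ratio of 0.419 (counting interval 0.393 to 0.448). Insig2, its relative, was at 8.49 and 8.44 FPKM (−0.01). Insig1 was at least 2-fold lower, whereas the counting interval of the Insig2 ratio ran from 0.786 to 1.26.

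Stard4, which carries sterol between membranes and is a known SREBP2 target, was at 8.16 and 2.89 FPKM (log2 change −1.24), close to the enzymes. Mylip, a ubiquitin ligase that lowers lipoprotein uptake and is switched on by LXR, was at 10.6 and 8.75 FPKM (−0.25). Nr1h2, which encodes LXR beta, was at 24.6 and 29.7 FPKM (0.26). Soat1, which esterifies cholesterol for storage (chromosome 1, 156424525 to 156474331, minus strand), was the most abundant member at 158 and 181 FPKM (0.19). Mylip, Nr1h2 and Soat1 all lay within 2-fold.

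Ch25h went the other way from the enzymes. It encodes the hydroxylase that makes an oxysterol able to hold SREBP2 in the endoplasmic reticulum, and it is known as an interferon-stimulated gene (chromosome 19, 34473778 to 34475164, minus strand). Ch25h stood at 23.1 FPKM in the vehicle library and 89.5 FPKM in the 4-OHT library, a log2 change of 1.91 that ranked 309 from the highest. As the 1 member with a single annotated transcript, its fragments could be recovered: 1081 with vehicle and 3324 with 4-OHT, giving a ratio of 3.87 (counting interval 3.61 to 4.15). Beside it, a list of 18 interferon-stimulated genes held 18 that were at least 2-fold higher, where 5.78% of all measured genes were higher. The list was chosen with earlier results of these data known. Its median log2 change was 4.78 and its lowest value 1.78. The part of interferon signalling in the levels of Ch25h or of the enzymes was not tested.

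In the authors' deposited table, 1 member was called lower at a q-value under 0.05, Sqle at 0.0192, where 0.752% of all rows were called lower. Ch25h was called higher at 0.00466, where 1.72% of all rows were called higher. Fdps lay just outside at 0.0546, followed by Msmo1 at 0.0779 and Idi1 at 0.0996. The deposited p-value was under 0.05 for 9 members below vehicle, beside 4.81% of all rows. The deposited p-values did not follow the size of the difference in every gene. Cyp51, lowest of the members, had a deposited p-value of 0.167 in the authors' deposited table, Fdft1 one of 0.458 and Mvd one of 0.528. These 3 genes stood on deposited loci that they shared with other rows, 4 rows for Cyp51, 2 for Fdft1 and 78 for Mvd, whose locus ran over 4435 kilobases around a gene of 9.82 kilobases. In all, 8 of the 28 members stood on a shared locus, and the share over all rows was not counted. Fdps and Ch25h, with deposited q-values of 0.0546 and 0.00466, were among the 8. The part of the shared locus in the p-values was not tested. How the deposited test estimated spread without replicates is not given in the sources used here.

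**Figure D4:**
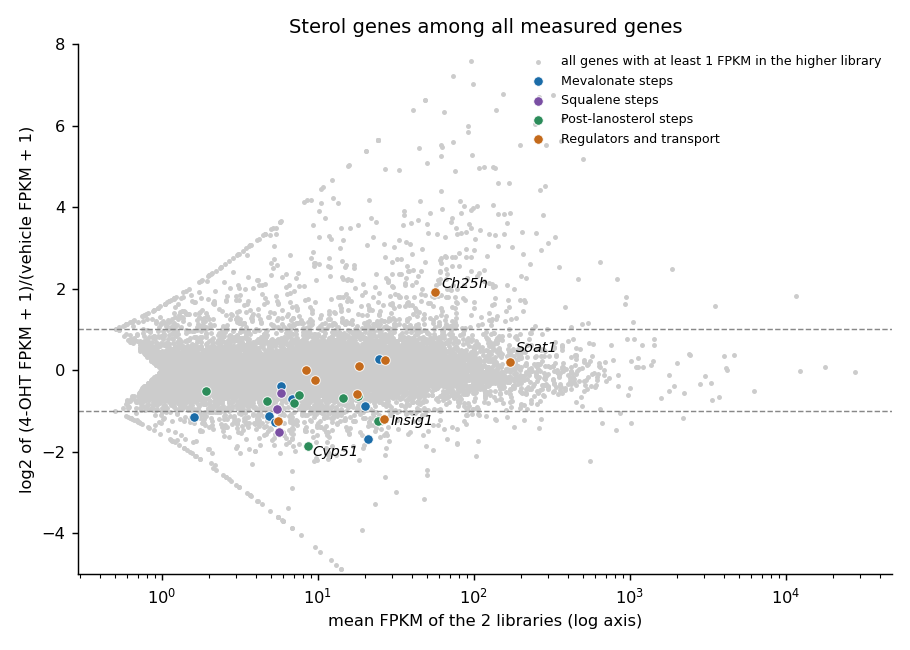
Log2 change (vertical axis, FPKM plus 1) against the mean FPKM of the 2 libraries (log axis) for the 13558 measured genes in grey, except 12 that fall outside the plotted range, and the members in colour by role. Dashed lines mark 2-fold, with 9 members on or below the lower line and Ch25h above the upper one.

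Other genes of the pathway were taken from lists by function. Of 3 further synthesis genes in the table, all 3 were below vehicle and within 2-fold. Acat1, the mitochondrial thiolase, was at 15.6 and 10.4 FPKM (log2 change −0.53). Mmab, a cobalamin enzyme whose gene lies next to Mvk, was at 3.76 and 3.18 FPKM (−0.19), and Lbr, a sterol reductase of the nuclear envelope that catalyses the same step as Tm7sf2, was at 17.6 and 16.7 FPKM (−0.07).

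The genes that process SREBP or remove the enzymes showed no common direction. Of 11 genes for SREBP processing and enzyme turnover, 11 were within 2-fold, with 6 below and 5 above vehicle and a median of −0.02. The largest differences were those of Rnf139, a ubiquitin ligase of the endoplasmic reticulum, at 9.05 and 14.8 FPKM (0.65), March6, the ligase that degrades squalene epoxidase, at 23.9 and 17.1 FPKM (−0.46), and Syvn1, another ligase of that compartment, at 10.3 and 14.01 FPKM (0.41). Of 16 genes of the isoprenoid branches, which use the diphosphates for prenylation, dolichol and coenzyme Q, 16 were within 2-fold with 1 FPKM added. Their median change was 0.11. Trit1, which modifies tRNA with an isopentenyl group, was highest at 4.17 and 8.95 FPKM (0.95), a ratio of 2.15 without the added 1. Coq2, of coenzyme Q synthesis, was at 0.56 and Fnta, a farnesyltransferase subunit, at −0.56. Ggps1, at 0.28, lay inside the range of these branch genes, which ran from −0.56 to 0.95.

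Uptake and transport genes were mixed. Of 16 measured, 3 were at least 2-fold higher and the other 13 did not reach 2-fold with 1 FPKM added. The median was 0.07. Vldlr, among the 13, was at 1.03 and 2.59 FPKM, a ratio of 2.52 without the added 1. Stard3, a sterol-binding protein of late endosomes, was at 22.2 and 52.5 FPKM (log2 change 1.20), and Gramd1b, which takes sterol from the plasma membrane, at 15.3 and 34.3 FPKM (1.11). Npc2, the sterol carrier of the lysosome, completed the 3 higher genes, at 158 and 337 FPKM (1.09).

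Of 11 LXR targets, 3 were lower and the other 8 did not reach 2-fold. The median change of −0.25 was the value of Mylip, which is also a member. The export genes of this list lay within 2-fold: Abca1 was at 40.6 and 37.7 FPKM (−0.11) and Abcg1 at 43.1 and 83.8 FPKM (0.94). The 3 lower genes were the desaturase genes Scd2 (−3.28) and Scd1 (−1.63), which are SREBP1 targets as well, and Apoe (−1.29). Of 12 genes of fatty acid synthesis, which SREBP1 drives and which share Scd1 and Scd2 with the LXR list, 5 were lower and all 12 below vehicle, with a median of −0.78. After the desaturases came Elovl6, a fatty acid elongase, at 3.01 and 0.634 FPKM (−1.29).

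Of 5 measured genes of oxysterols and esters, 4 lay within 2-fold and 1, Soat2, was higher. Soat2, the second cholesterol acyltransferase and in the body mainly a gene of gut and liver parenchyma, stood at 1.37 FPKM in the vehicle library and 10.4 FPKM in the 4-OHT library (log2 change 2.27, q-value 0.00466 in the authors' deposited table). Its level with 4-OHT still lay far below the 181 FPKM of Soat1. Hsd3b7, of bile acid synthesis, was at −0.35, and Cyp7b1, an oxysterol hydroxylase, at −0.12.

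**Figure D5:**
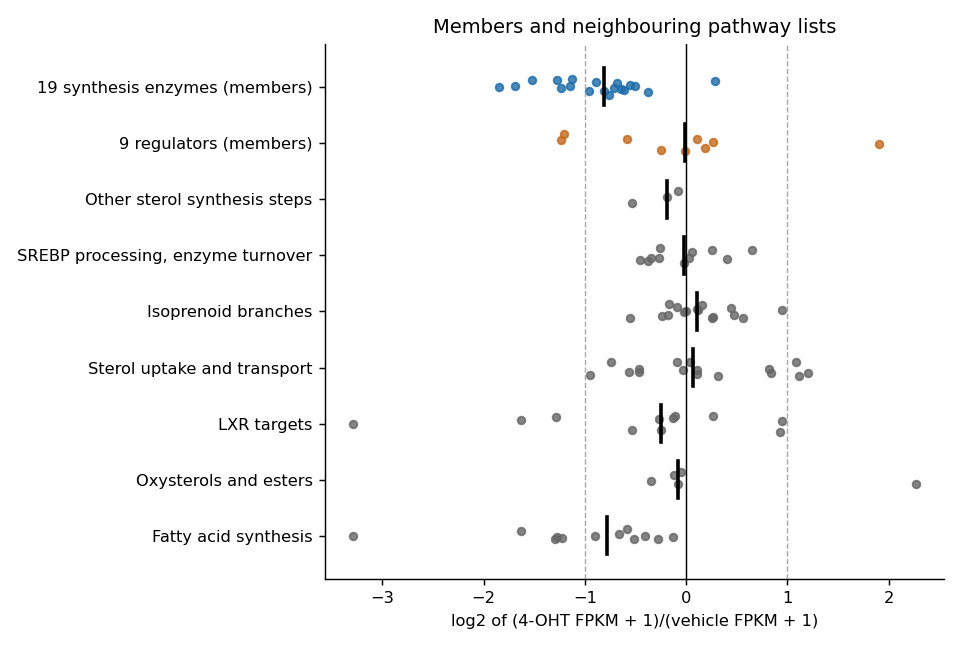
Log2 change (FPKM plus 1, 4-OHT over vehicle) on the horizontal axis, one point per measured gene, for the enzymes and regulators and for 7 neighbouring lists; black bars are list medians and dashed lines mark 2-fold. The enzymes (median −0.81) and fatty acid synthesis (median −0.78) lie to the left, and the isoprenoid branches (median 0.11) and SREBP processing genes (median −0.02) lie around 0.

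Markers of macrophages and endothelium were abundant in both libraries, and most but not all marker lists were lower together with the sterol genes. FPKM summed to 493531 with vehicle and 553634 with 4-OHT, and a transcript of 1 kilobase effective length at 1 FPKM had 38.6 and 30.5 fragments. Stellate markers were present, with Des at 12.6 and 7.15 FPKM and Lrat at 1.36 and 0.209 FPKM, and their sum over 17 genes in the table was 404 FPKM with vehicle and 185 FPKM with 4-OHT. Of these 17, 8 were at least 2-fold lower. The 16 macrophage markers summed to 6354 and 4376 FPKM, with 3 lower, 1 higher and a median log2 change of −0.21, and Lyz2 alone went from 3050.5 to 1353 FPKM. The 14 endothelial markers summed to 2404 and 2285 FPKM, with 2 lower and a median of −0.44, and Egfl7 went the other way, from 421 to 675 FPKM. The sums thus give a larger fall for macrophage markers and the medians a larger one for endothelial markers. Mesothelial markers were low and summed to 8.58 and 2.54 FPKM over 8 genes. The 5 at 1 FPKM or more were all below vehicle. Of these, 2 were lower, Upk3b at 1.78 and 0.146 FPKM and Lrrn4 at 1.27 and 0.102 FPKM. Wt1 and Upk1b came within 2-fold only with 1 FPKM added, and their ratios without it were 0.137 and 0.185. Hepatocyte markers were scarcer still, with 3 of 10 in the table and a sum of 2.29 and 0.545 FPKM. Cholangiocyte markers, 3 of 7 in the table, summed to 99.6 and 37.4 FPKM, of which Spp1 made up 94.8 and 34.5 FPKM. Lymphocyte markers summed to 6.44 and 9.37 FPKM over 5 of 9 genes. Of the 4 at 1 FPKM or more, 3 were above vehicle, and the median change was 0.59. All 4 lay within 2-fold only with 1 FPKM added to these low values or, for Trac, also without it. The ratios without the added 1 were 3.29 for Cd3e, 2.25 for Cd3d, 1.86 for Trac and 0.365 for Klrb1c. None of the markers in the table was listed at 0 in either library. Of 20 cell cycle genes 13 were lower, with sums of 303 and 158 FPKM, and of 13 mitochondrially encoded transcripts 10 were lower, with sums of 7433 and 3619 FPKM. The median change of the sterol enzymes was −0.81, beside −0.96 for stellate markers and −1.36 for cell cycle genes. In bulk RNA, fewer cells of a type and less RNA per cell cannot be told apart, and the part of the cell makeup in the sterol levels was not tested.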

How the data were processed

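RNA-seq libraries labelled as primary hepatic stellate cells were compared, 1 with vehicle and 1 with 4-OHT, grouped by the treatment in their labels. The authors deposited 1 FPKM value per gene and library, the p-values and q-values of their own comparison, and a log2 fold change, per the file headers; that log2 value was, within 1e-09, the log2 of FPKM plus 1, 4-OHT over vehicle, in 17145 of 17145 rows. Per the submitters' processing notes, STAR, Cufflinks and GRCm38 were used; versions, roles and how the libraries were scaled are not given in the sources used here. Gene identifiers matched GENCODE M21 (GRCm38) in all rows, 20 symbols that had become dates were restored, and each of 17128 symbols kept its row of highest summed FPKM.

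Depth was recovered from 685 low values per library of genes with 1 transcript longer than 600 bases. FPKM times effective length fell within 0.1 of a whole number of fragments for 97.7% with vehicle and 98.8% with 4-OHT, where chance gives 20%. For members with several transcripts, fragments were computed for the shortest and the longest basic protein-coding transcript, and the wider interval is printed. Intervals of ratios are exact 95% binomial intervals of the fragments and cover counting error only. The step search and the 2-fold count were tested on simulated data with depths set near the recovered ones and counting error only. Without variation between cultures, that test cannot tell how often a 2-fold difference arises between unreplicated libraries. A pseudocount of 1 FPKM and a minimum of 1 FPKM in the higher library were used, with Python 3.11.15, numpy 2.4.6, pandas 2.3.3 and scipy 1.17.1.

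The members and the lists were chosen with earlier results of these data known. All members are named, with the 3 genes of largest absolute change in each neighbouring list. Abca1, Abcg1, Vldlr, Des, Lrat, the other named cell type markers and genes that overlap members were added after their values were seen. A planned rule for printing promoters, a 2-fold change together with TCACNCCAC, was met by no member, so the promoters other than that of Insig2, and the search for CCAAT, were chosen afterwards. Some genes of the neighbouring lists are not reported here and were left out of their counts. Alternatives were other pseudocounts, scalings, minimum values and a 1.5-fold threshold.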

Additional observations from a re-analysis of the deposited data

How the results depend on the processing

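No replicate could be left out and no paired analysis was possible because each group had 1 library. The direction of the 9 lower members and of Ch25h held under every pseudocount and scaling tried, but that outcome was fixed in advance. An equal pseudocount in both libraries cannot turn a sign, and the scalings were too small to reverse a 2-fold change. With a pseudocount of 5, 4 members were at least 2-fold lower, since Acat2, Idi1, Mvd, Sqle and Stard4 came within 2-fold; the share of all genes that were lower was then 1.20%. At a 1.5-fold threshold 17 were lower, beside 10.2% of all genes. The median change of the 28 members was −0.77 with a pseudocount of 0.1, −0.47 with 5, −0.89 on the scale of equal FPKM sums, −0.73 when centred on the median of all genes and −0.80 on the upper quartile scale. Equal FPKM sums shifted the median of all genes by −0.15 and added Fdft1, Hmgcs1 and Nsdhl to the lower members; the upper quartile scale shifted it by −0.10 and added Fdft1. Removing the minimum or raising it to 5 FPKM left the median at −0.69, with 9 of 28 members lower (2.76% of all genes) and 8 of the 26 members that remained (3.52%). In the authors' deposited table, 9 members were lower at a p-value under 0.05, against 1 by q-value. Without replicates, depth limits each value only in counting error, which is widest for Tm7sf2.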
